A study of Mus musculus with 8 samples.

Results

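The 7 genes described here, Cdh7, Cib3, Sptbn5, Mlph, Defb1, St8sia1 and Cyp4f39, are among those with the largest falls in pancreatic islets of 7-week-old mice labelled as lacking IRE1α in beta cells. They are 7 of the 14126 genes in the deposited table, and were selected on their log2 fold change and the lack of overlap between the groups, so their difference between the groups is a description and carries no test. Bulk RNA sequencing compared 4 KO libraries (IRE1αβ-/-, read from the genotype name and the series title as loss of IRE1α from the insulin-secreting beta cells) with 4 WT libraries (IRE1αfl/fl, floxed Ern1). All mice were NOD/ShiLtJ, a strain that develops autoimmune diabetes, and the treatment protocol recorded for both groups is tamoxifen at 10 mg/ml, 2 intraperitoneal injections a day for 5 consecutive days, to induce Cre recombinase. The labels give neither the promoter that drives Cre nor whether the floxed mice carried it, and they do not give the sex of the mice. Islets, the hormone-secreting clusters of the pancreas, were released from the tissue by enzymes, cleared of exocrine cells by density separation and hand-picked.

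The 7 genes have no common pathway by their known functions. Cdh7 encodes a type II classical cadherin of calcium-dependent cell adhesion, and Sptbn5 a beta spectrin of the membrane skeleton. Cib3 encodes an EF-hand calcium-binding protein, which in mouse hair cells works with its relative CIB2 as a subunit of the mechanotransduction channel. Mlph encodes melanophilin, which ties RAB27A on the surface of a vesicle to the motor myosin Va. It is best known for moving pigment granules in melanocytes, and in mouse beta cells it has been linked to the fusion of insulin granules. Defb1 encodes beta-defensin 1, an antimicrobial peptide of epithelia. St8sia1 encodes GD3 synthase, which adds a sialic acid to the ganglioside GM3, and Cyp4f39 a fatty acid omega-hydroxylase, the mouse counterpart of human CYP4F22, which makes a precursor of skin barrier lipids. IRE1α, the product of Ern1, is a sensor of stress in the endoplasmic reticulum that splices the messenger RNA of the transcription factor XBP1.

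Promoter sequences of 4 of the 7 genes are shown, from RefSeq's annotation of GRCm38.p6, so that the letters upstream of genes that fell together can be compared. Of the 7 genes, 6 have an entry in that table, with 8 start sites between them, and Defb1 is named only. Cib3, which holds none of the 3 short motifs described next, is not shown, nor is Cdh7, whose entry lies inside the GENCODE gene. Bases inside the GENCODE M21 gene are left out. The RefSeq start used for Sptbn5 lies upstream of its GENCODE M21 gene, which ends at 120085693, so that window does not adjoin the coordinates given below. Capitals mark the 3 short motifs on either strand. The first is ACGTG, the core of the sequences that XBP1 binds. The others are the end motifs of the ER stress response element bound by ATF6, one being CCAAT and the other being CCACG, which can overlap the first. Each line reads 5′ to 3′ on the gene's strand.
Mlph, chr1:90914850-90915084, plus strand: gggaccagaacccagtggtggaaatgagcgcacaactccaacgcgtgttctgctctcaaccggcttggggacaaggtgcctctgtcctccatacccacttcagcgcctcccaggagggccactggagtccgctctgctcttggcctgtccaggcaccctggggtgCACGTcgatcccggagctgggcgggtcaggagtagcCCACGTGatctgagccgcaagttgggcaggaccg
Sptbn5, chr2:120088914-120089163, minus strand: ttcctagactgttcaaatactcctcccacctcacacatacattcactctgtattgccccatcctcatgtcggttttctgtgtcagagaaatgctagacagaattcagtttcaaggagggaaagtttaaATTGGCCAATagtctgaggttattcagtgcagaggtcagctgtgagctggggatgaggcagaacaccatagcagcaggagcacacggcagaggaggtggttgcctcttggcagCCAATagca
St8sia1, chr6:142964453-142964702, minus strand: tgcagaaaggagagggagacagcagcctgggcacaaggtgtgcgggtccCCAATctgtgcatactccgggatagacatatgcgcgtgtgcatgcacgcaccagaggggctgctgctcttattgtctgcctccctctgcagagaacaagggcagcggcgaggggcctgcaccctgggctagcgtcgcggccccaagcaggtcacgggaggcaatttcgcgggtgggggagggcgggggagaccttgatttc
Cyp4f39, chr17:32452473-32452722, plus strand: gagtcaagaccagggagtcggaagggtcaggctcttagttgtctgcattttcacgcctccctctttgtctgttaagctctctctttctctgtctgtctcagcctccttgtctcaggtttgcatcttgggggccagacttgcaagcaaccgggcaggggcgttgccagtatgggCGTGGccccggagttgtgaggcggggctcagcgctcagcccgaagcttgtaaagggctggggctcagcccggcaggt
Within 250 bases upstream of the start, the longer motif TGACGTG was found at none of the 8 member start sites and in 1.65% of 32851 RefSeq promoters, and the whole ER stress response element at none and in 0.113%. The letters ACGTG were found at 2 of the 8 start sites, for Mlph and Cdh7, against 16.6% of all promoters. CCACG was found at 3 of the 8, for Mlph, Cdh7 and Cyp4f39 (28.3% of all promoters), and CCAAT at 3 of the 8, for Cdh7, Sptbn5 and St8sia1 (33.8%). A match describes the letters only, and no match says only that they are not in this window.

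The values deposited by the authors are normalized counts, rounded to whole numbers, so they are comparable between libraries but hold no direct depth. Totals lay between 32024139 and 34077672 in KO and between 33631875 and 34858983 in WT libraries. The targeted gene, Ern1, was not lower in the KO libraries. KO replicates 1 to 4 had 7223, 7390, 6922 and 7216, and WT replicates 1 to 4 had 5549, 5164, 4622 and 4500. By limma-trend the log2 fold change was 0.54 ± 0.08 (SE) with an adjusted p = 0.00234. This total counts reads over the whole gene, and the sources used here do not name the floxed exons, so it does not check a deletion. All directions below therefore rest on the labels, and KO means a library labelled KO. The islets carried the markers of beta cells at high level, and 9 of 14 beta cell markers fell, beside 9.81% of all 14121 genes tested, with a summed value of 2573804 to 3524507 in KO and 5410266 to 6052827 in WT libraries. Of the alpha cell markers 7 of 8 rose, beside 11.1% of all genes tested. They summed to between 1923783 and 2627035 in KO and between 404531 and 1045247 in WT libraries. Most of that sum was Gcg, which had 2535429 of the 2627035 in KO replicate 1. In whole islets, fewer cells of a type and less RNA per cell cannot be told apart. Libraries 1 and 2 of both groups also differed from libraries 3 and 4, a split found in the data and recorded by no label, and values within each set are given for each of the 7 genes.

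The adhesion gene Cdh7 (ENSMUSG00000026312, GRCm38 chromosome 1, 109982431 to 110140157, plus strand) had the lowest log2 fold change of the 7 genes as deposited, though not after quantile normalization, where Sptbn5 and Cib3 were lower, nor within libraries 3 and 4, where Mlph and Sptbn5 were. KO replicates 1 to 4 stood at 32, 25, 39 and 21, against 307, 349, 258 and 345 for WT replicates 1 to 4. Every KO library lay far below every WT library, the lowest WT value being 6.62 times the highest KO value. The means were 29.2 ± 7.93 in KO and 314.8 ± 42.3 in WT islets (SD, n = 4 each), so KO islets held 9.29% of the WT mean, and the log2 fold change was -3.41 ± 0.22 (SE). With 1 library left out at a time it lay between -3.56 and -3.27. Within libraries 1 and 2 it was -3.49, and within libraries 3 and 4 -3.34.

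Cib3, the calcium sensor gene (ENSMUSG00000074240, chromosome 8, 72204335 to 72212837, minus strand), was the most even of the 7 genes within the KO group. KO replicates 1 to 4 stood at 19, 16, 18 and 18, against 206, 169, 228 and 123 for WT replicates 1 to 4. The KO libraries were nearly level, with a coefficient of variation of 7.09%, while the WT libraries varied by 25.3% and WT replicate 4 was the lowest of them. The mean was 17.8 ± 1.26 in KO and 181.5 ± 46.0 in WT islets, a log2 fold change of -3.25 ± 0.24 and 9.78% of the WT mean. Libraries 1 and 2 alone gave -3.35, and libraries 3 and 4 alone -3.15. The groups did not overlap.

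Sptbn5, the spectrin gene (ENSMUSG00000074899, chromosome 2, 120041493 to 120085693, minus strand), was the lowest of the 7 in level. It is annotated as a processed transcript in GENCODE M21 and as protein coding in RefSeq. KO replicates 1 to 4 stood at 5, 13, 11 and 3, against 50, 78, 67 and 79 for WT replicates 1 to 4. The groups did not overlap, but single-digit values leave the size of the fall loosely fixed. The mean was 8.0 ± 4.76 in KO and 68.5 ± 13.5 in WT islets, a log2 fold change of -3.10 ± 0.47. Within libraries 1 and 2 it was -2.79, and within libraries 3 and 4 -3.41, and -3.87 after quantile normalization. The end of Sptbn5 overlaps Gm28042, a protein-coding gene on the plus strand. Of the 11535 words of 50 bases in Sptbn5 transcripts, 745 match transcripts of Gm28042, as read or as the reverse complement. Whether the counting used strand is not given in the sources used here. Gm28042 had 179, 241, 149 and 150 in KO libraries and 256, 284, 208 and 232 in WT libraries, and its difference did not pass the test (log2 fold change of -0.46 ± 0.18, adjusted p = 0.101, limma-trend), though it did with the replicate number as a block (adjusted p = 0.0366).

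Mlph, the melanophilin gene (ENSMUSG00000026303, chromosome 1, 90915085 to 90951142, plus strand), was the least even of the 7 genes among KO libraries. KO replicates 1 to 4 stood at 86, 89, 28 and 12, against 360, 393, 263 and 240 for WT replicates 1 to 4. KO replicates 3 and 4 were well below KO replicates 1 and 2, a 7.42-fold range, and WT replicates 3 and 4 were the lower pair too, within a 1.64-fold range. The mean was 53.8 ± 39.5 in KO and 314.0 ± 74.0 in WT islets, a log2 fold change of -2.90 ± 0.58. Within libraries 1 and 2 it was -2.09, and within libraries 3 and 4 -3.70, and -2.34 without KO replicate 4. The groups did not overlap in either set of libraries.

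Defb1, the defensin gene (ENSMUSG00000044748, chromosome 8, 21776599 to 21795185, plus strand), was the most abundant of the 7. KO replicates 1 to 4 stood at 123, 178, 490 and 285, against 1226, 1306, 2709 and 1545 for WT replicates 1 to 4. Replicate 3 was the highest library in both groups and replicate 1 the lowest. The mean was 269.0 ± 162.0 in KO and 1696 ± 688.5 in WT islets, a log2 fold change of -2.77 ± 0.41 and 15.9% of the WT mean. Within libraries 1 and 2 it was -3.09, and within libraries 3 and 4 -2.45. The lowest WT value was 2.5 times the highest KO value, the narrowest gap among the 7 genes.

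St8sia1, the GD3 synthase gene (ENSMUSG00000030283, chromosome 6, 142821545 to 142964452, minus strand), stood at 102, 76, 99 and 102 for KO replicates 1 to 4, against 659, 738, 578 and 572 for WT replicates 1 to 4. Of the KO values 3 lay within a few counts of each other, with KO replicate 2 below them. The means were 94.8 ± 12.6 in KO and 636.8 ± 78.3 in WT islets, a log2 fold change of -2.74 ± 0.14, the smallest standard error of the 7 genes. Within libraries 1 and 2 it was -2.97, and within libraries 3 and 4 -2.50. Gm7457, a gene on the other strand that is not analysed here, overlaps the end of St8sia1. Of the 50-base words in St8sia1 transcripts 1.28% occur in transcripts of other genes, as read or as the reverse complement.

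Cyp4f39, the fatty acid hydroxylase gene (ENSMUSG00000061126, chromosome 17, 32452723 to 32493320, plus strand), stood at 66, 48, 84 and 88 for KO replicates 1 to 4, against 458, 430, 539 and 455 for WT replicates 1 to 4. The WT libraries were close together, with a coefficient of variation of 10.1%, and the KO libraries varied by 25.7%. The means were 71.5 ± 18.4 in KO and 470.5 ± 47.4 in WT islets, a log2 fold change of -2.73 ± 0.20 and 15.2% of the WT mean. Libraries 1 and 2 alone gave -2.96, and libraries 3 and 4 alone -2.51. Although it sits in a cluster of related Cyp4f genes, none of the 2848 words of 50 bases in its transcripts occurs in a transcript of another gene, and the same held for Cdh7, Cib3 and Defb1.

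**Figure D1:**
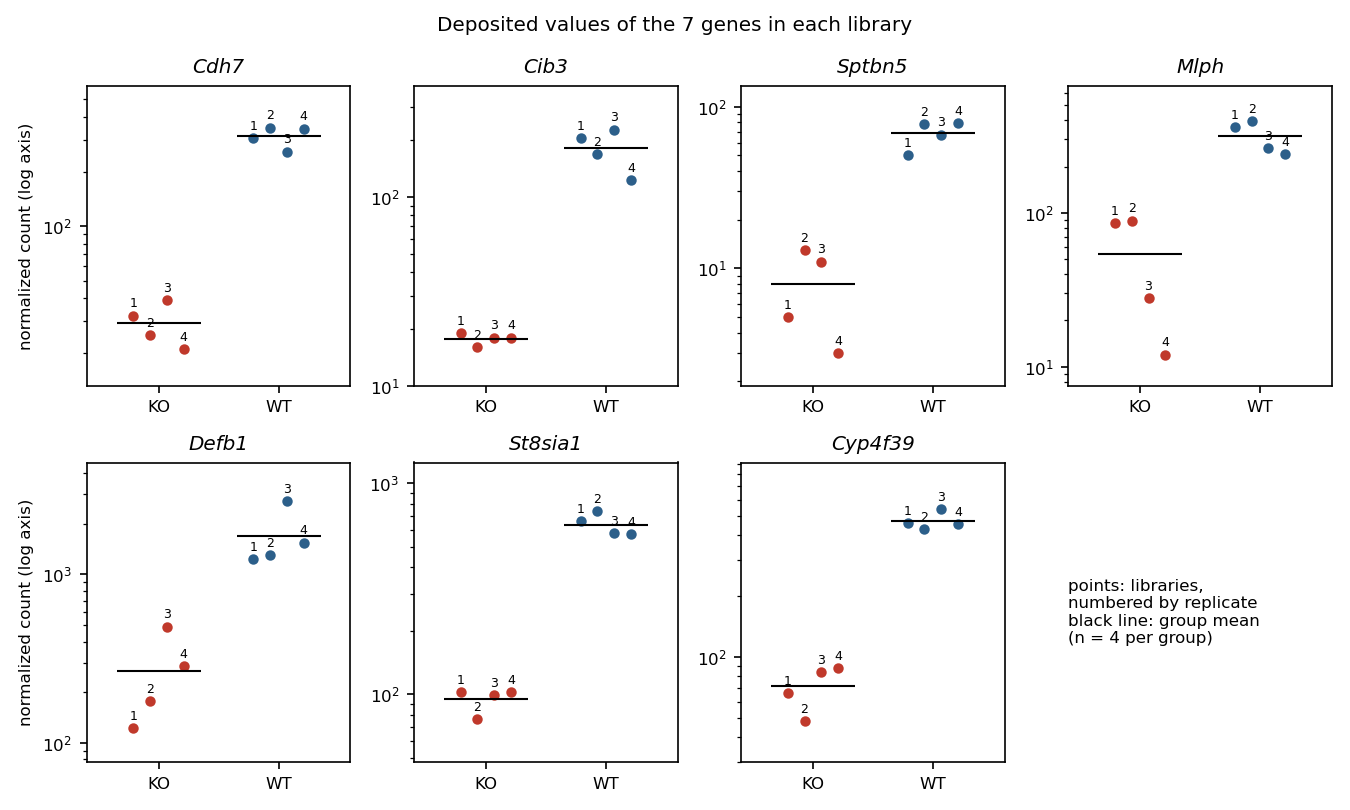
Deposited normalized counts (log axis, a separate scale for each gene) of the 7 genes in the KO and WT libraries, with points numbered by replicate and black lines at the group means (n = 4 each). No KO library reaches the lowest WT library for any of the 7 genes. Mlph spans 12 to 89 in KO libraries, and Cib3 only 16 to 19.

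In all, KO islets held between 9.29% (Cdh7) and 17.1% (Mlph) of the WT mean. All 7 genes passed the filter on low values, and the groups did not overlap for any of them, as for 12.3% of the 14121 genes tested in that direction. That separation was part of how they were chosen, so nothing is read from it. The authors' deposited table gives log2 fold changes of -3.42 for Cdh7, -3.34 for Cib3, -3.10 for Sptbn5, -2.80 for Mlph, -2.76 for Defb1, -2.74 for St8sia1 and -2.73 for Cyp4f39. In the ranking of falls that the choice came from (called genes with no overlap and a mean of at least 1 CPM, leaving out unnamed gene models), the 7 genes hold 7 of the first 10 places. The other places belong to Snora78, a small nucleolar RNA gene, at -3.21, T2 at -3.18 and Trpm5, a calcium-activated cation channel gene, at -2.76. Snora78 rests on an uneven WT group, with 13, 6, 5 and 7 in KO and 47, 67, 416 and 24 in WT libraries. The last place inside is that of Cyp4f39 at -2.73. Just outside it are Myo3a, a myosin gene, at -2.52, and Slc6a19os at -2.46.

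Per kilobase of exon, the order of the WT levels ran from Defb1 at 1950 ± 790.0 (SD of the normalized count per kb, n = 4) through Cyp4f39 at 165.0 ± 16.6, Cib3 at 90.1 ± 22.8, St8sia1 at 68.2 ± 8.38, Mlph at 58.6 ± 13.8 and Cdh7 at 31.4 ± 4.21 to Sptbn5 at 5.87 ± 1.16. In that order Cib3 and St8sia1, and St8sia1 and Mlph, differed by less than the larger SD of the pair, though by more than the SD of St8sia1. The median of 14109 genes was 138.0 per kb in WT islets, so only Defb1 and Cyp4f39 were above it. In KO islets the levels per kb were 308.0 for Defb1, 25.0 for Cyp4f39, 10.1 for St8sia1, 10.0 for Mlph, 8.81 for Cib3, 2.91 for Cdh7 and 0.686 for Sptbn5. All were lower than the median WT level except that of Defb1.

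Libraries 3 and 4 were also compared with libraries 1 and 2. This difference does not enter the log2 fold change that ranked the genes, but the choice also required a call and no overlap, which depend on the spread within groups. The split was found in these data, and same-numbered KO and WT libraries enter as independent, so the p-values for it are a guide to size against spread. With genotype in the model, Mlph was lower in libraries 3 and 4 than in libraries 1 and 2, with a log2 difference of -1.38 ± 0.35 (SE; limma-trend, adjusted p = 0.0263), and it was lower in both KO and WT islets. Defb1 was higher in libraries 3 and 4, by 1.01 ± 0.24 (adjusted p = 0.0199, limma-trend). These were 2 of 7 genes called, beside 15.4% of all genes tested (9.38% higher and 6.06% lower in libraries 3 and 4). The call of Mlph was lost without KO replicate 1, 2 or 3 (highest adjusted p = 0.0776, limma-trend), and that of Defb1 without WT replicate 3 (adjusted p = 0.0676, limma-trend). Cyp4f39 had a difference of 0.38 ± 0.15 (adjusted p = 0.131, limma-trend), and the other 4 genes had differences between -0.09 and -0.04 (adjusted p of at least 0.867, limma-trend). Markers of several cell types moved with the same split. Of the measured markers 4 of 5 endothelial, 4 of 6 macrophage and 3 of 4 Schwann cell markers were called higher in libraries 3 and 4. Stellate cell markers had sums of 6983, 5666, 15674 and 15227 for KO replicates 1 to 4 and 1535, 3156, 5040 and 7837 for WT replicates 1 to 4, and all 7 of them were called higher in libraries 3 and 4. The part of these cells in the differences of Mlph and Defb1 was not tested.

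**Figure D2:**
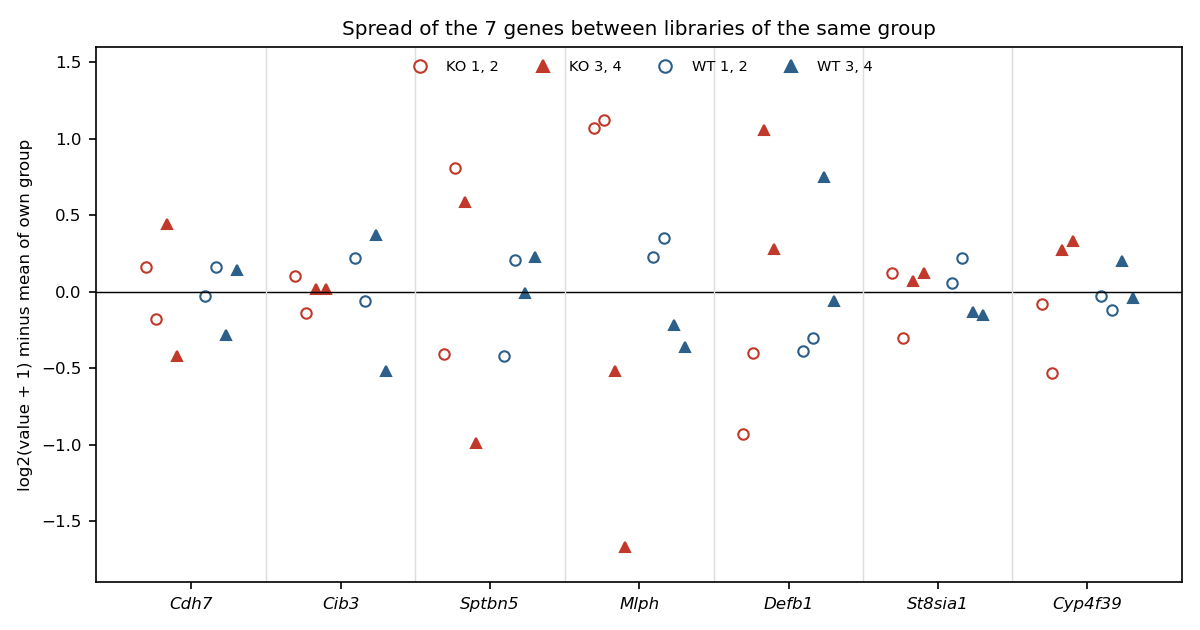
Each point is the log2(value + 1) of 1 library minus the mean of its own group, for KO (left of each gene) and WT (right), with open circles for libraries 1 and 2 and filled triangles for libraries 3 and 4. The triangles of Mlph lie below those of libraries 1 and 2 in both groups and reach -1.67 in KO replicate 4. Those of Defb1 lie above, by up to 1.06 in KO replicate 3.

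Whether the fall itself differed between the sets was tested by the interaction of genotype and set. The limits given for the comparison of the sets hold here too. Because the choice required a call and no overlap, genes whose fall differed widely between the sets were less likely to be chosen. A missing call is therefore not read as an even fall. None of the 7 genes passed (limma-trend), with Mlph having the lowest adjusted p at 0.143 for a difference of -1.61 ± 0.47 between log2 fold changes. At an unadjusted p under 0.05 the count was 1 of 7, Mlph, beside 18.8% of all genes. Over all genes 14 passed, 0.0991%, against 1 without WT replicate 4 and 146 without KO replicate 2. The differences of the other 6 genes lay between -0.62 (Sptbn5) and 0.64 (Defb1), with standard errors of 0.91 and 0.44.

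Of 149 listed relatives and partners 104 were measured, of which 28 were called higher (26.9%), 19 lower (18.3%) and 57 not called. Over all genes tested, 11.1% were called higher and 9.81% lower (limma-trend, adjusted p under 0.05). The median log2 fold change was 0.13 over the relatives, and the lowest was -2.34. The count of lower relatives was 12 without KO replicate 1 and 11 without KO replicate 4.

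**Figure D3:**
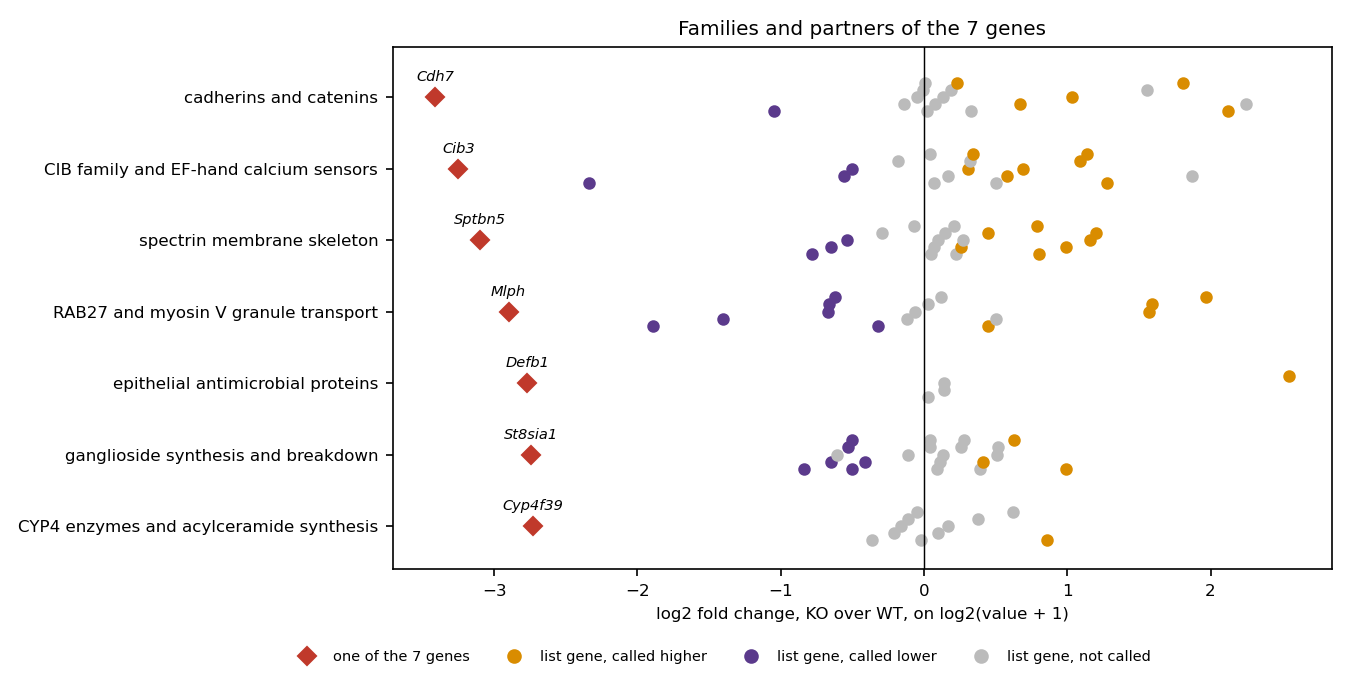
Log2 fold change (KO over WT) of the measured genes in the family or partner list of each of the 7 genes, with the gene itself as a red diamond and list genes coloured by their call (limma-trend, adjusted p under 0.05). The diamonds are at the low end because the 7 genes were selected for that. The RAB27 and myosin V list spreads from -1.89 to 1.97.

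Among cadherins and catenins, which join cells, 5 of 17 measured genes rose, 1 fell and 11 did not pass. The gene that fell was Cdh8, another type II cadherin, with 1303 ± 96.2 in KO and 2724 ± 413.4 in WT islets (log2 fold change of -1.05 ± 0.11, adjusted p = 5.13e-04, limma-trend). Cdh9, also of type II, rose to 73.2 ± 30.1 in KO, against 16.5 ± 7.94 in WT islets (2.12 ± 0.43, adjusted p = 0.00877), and Cdh11, a cadherin of mesenchymal cells, had 122.0 ± 39.3 in KO and 36.5 ± 18.0 in WT islets (1.81 ± 0.43, adjusted p = 0.0172, limma-trend). The call of Cdh11 was lost without KO replicate 3 or 4 and in libraries 1 and 2 alone (highest adjusted p = 0.114). Cdh1, which encodes the epithelial cadherin, did not pass (-0.14 ± 0.14, adjusted p = 0.531, limma-trend). The summed stellate cell markers were also higher in each KO library than in the WT library of the same number, with 1 of 7 markers called higher, or 6 with the replicate block, and their part in the rise of Cdh11 was not tested.

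Among the relatives of Cib3, calcium sensors with EF hands, 7 of 17 rose, 3 fell and 7 did not pass. Chp2, which encodes a partner of sodium-proton exchangers, had 7, 10, 14 and 8 in KO libraries and 47, 61, 44 and 58 in WT libraries. These did not overlap, and its log2 fold change of -2.34 ± 0.34 (adjusted p = 0.00191, limma-trend) was the lowest among the measured relatives. Cib2, the relative that works with Cib3 in hair cells, had 551.5 ± 42.0 in KO and 819.5 ± 148.1 in WT islets (-0.56 ± 0.14, adjusted p = 0.0199, limma-trend), a call lost without KO replicate 1, 3 or 4 or WT replicate 2 and in libraries 3 and 4 alone (highest adjusted p = 0.0589). Without KO replicate 1, KO replicate 4 or WT replicate 2 only 1 gene of the list was called lower. Cib1 did not pass (-0.18 ± 0.13, adjusted p = 0.36). Calb1, the calcium buffer calbindin, rose by 1.28 ± 0.14 (adjusted p = 4.38e-04) and Ncs1, neuronal calcium sensor 1, by 1.14 ± 0.17 on the log2 scale (adjusted p = 0.00246, limma-trend).

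Of 19 measured genes of the spectrin membrane skeleton 7 rose, 3 fell and 9 did not pass. The most abundant spectrins did not pass, with log2 fold changes of 0.05 ± 0.13 for Sptan1, the alpha chain that beta spectrins pair with (adjusted p = 0.814), and of 0.27 ± 0.12 for Sptbn1 (adjusted p = 0.138, limma-trend; 0.0471 with the replicate block). The largest rises were those of Add2, beta adducin, by 1.2 ± 0.30 (adjusted p = 0.0213), Dmtn, dematin, by 1.16 ± 0.34 (adjusted p = 0.0407), and Ank1, ankyrin 1, by 0.99 ± 0.26 on the log2 scale (adjusted p = 0.0267, limma-trend). Each of these 3 calls was lost in several of the runs without 1 library, and the count of risers in the list was 3 without KO replicate 3, 3 without WT replicate 2 and 4 without KO replicate 2.

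The partners of melanophilin went both ways. Of 15 measured genes of RAB27 and myosin V transport 6 fell (40.0%), 4 rose and 5 did not pass, and in libraries 1 and 2 alone 3 fell. Of the 2 proteins that melanophilin joins, the RAB27A gene fell slightly, with 6462 ± 627.1 in KO and 8078 ± 553.6 in WT islets (log2 fold change of -0.32 ± 0.09, adjusted p = 0.0359, limma-trend). That call was lost without any one of 6 libraries (highest adjusted p = 0.0820), being kept without KO replicate 3 or WT replicate 2. Myo5a, the motor, did not pass (0.03 ± 0.14, adjusted p = 0.905). Mreg, melanoregulin, had 199, 245, 323 and 306 in KO libraries and 944, 1054, 1075 and 857 in WT libraries. These values did not overlap, with a log2 fold change of -1.89 ± 0.16 (adjusted p = 1.51e-04, limma-trend), and unlike those of Mlph they were not lower in KO replicates 3 and 4. Sytl4, which encodes granuphilin, the RAB27 effector that docks insulin granules, fell to 9184 ± 1503 in KO, against 24296 ± 4728 in WT islets (-1.40 ± 0.17, adjusted p = 7.85e-04, limma-trend).

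The RAB27 and myosin V genes that rose most were Rab27b, the second RAB27, by 1.97 ± 0.32 (adjusted p = 0.0031), and Myo5c, a myosin V of exocrine and other epithelia, by 1.59 ± 0.29 on the log2 scale (adjusted p = 0.00588, limma-trend). Both were highest in KO replicate 1, with 492 for Rab27b, against 204, 210 and 199 in KO replicates 2 to 4 and 46 to 84 in WT libraries. Ductal markers were highest in the same library, with summed values of 28709, 11963, 14884 and 15386 for KO replicates 1 to 4 and 6111 to 7192 in WT libraries, and 2 of the 7 ductal markers were called higher (1 to 4 under the alternatives). Acinar markers summed to between 123693 and 366579 in KO and between 17757 and 230496 in WT libraries, with none of 8 measured called higher, 7 so called in libraries 1 and 2 alone and 5 without WT replicate 3. Bhlha15, a transcription factor gene of the acinar list, fell, with 836.8 ± 176.7 in KO and 1569 ± 326.3 in WT islets (log2 fold change of -0.91 ± 0.18, adjusted p = 0.00854, limma-trend). Which cells its value came from was not tested. The part of these cells in the rises was not tested.

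For Defb1, 4 of 19 listed antimicrobial proteins of epithelia were measured, and the rest are not analysed here. Lcn2, lipocalin 2, rose with values of 667, 99, 119 and 84 in KO libraries and 19, 25, 31 and 34 in WT libraries (log2 fold change of 2.55 ± 0.60, adjusted p = 0.0176, limma-trend). Its highest library was again KO replicate 1, and without it Lcn2 had a log2 fold change of 1.87. Lyz2, Reg3b and Ang did not pass, with log2 fold changes from 0.03 to 0.14.

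Of 21 measured genes of ganglioside synthesis and breakdown 6 fell (28.6%), 3 rose and 12 did not pass. With the replicate block 7 fell and 5 rose, and without KO replicate 4, 3 fell. St3gal5, the GM3 synthase that makes the substrate of GD3 synthase, had 196.8 ± 21.5 in KO and 184.5 ± 19.4 in WT islets (0.09 ± 0.13, adjusted p = 0.672, limma-trend). The list held St8sia3 and St8sia5 of the ST8SIA family of sialyltransferases, and both were higher in KO islets. St8sia3 had 2266 ± 181.6 in KO and 1144 ± 153.4 in WT islets (0.99 ± 0.11, adjusted p = 5.31e-04), and St8sia5 had 769.2 ± 113.7 in KO and 577.0 ± 39.1 in WT islets (0.41 ± 0.12, adjusted p = 0.0387, limma-trend), though the call of St8sia5 was lost without 1 library in 7 of 8 cases (highest adjusted p over all settings 0.202). St3gal1 fell, with a log2 fold change of -0.65 ± 0.11 (adjusted p = 0.00473), as did Neu1, a lysosomal sialidase, with -0.84 ± 0.22 (adjusted p = 0.0244, limma-trend; highest 0.0686 without 1 library).

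Around Cyp4f39, 1 of 11 measured CYP4 and acylceramide genes rose, none fell and 10 did not pass. Cyp4f17, the next measured gene on the chromosome, had 204.8 ± 20.7 in KO and 239.0 ± 37.0 in WT islets (-0.21 ± 0.15, adjusted p = 0.34), and Cyp4f13, Cyp4f16 and Cyp4v3 had log2 fold changes between -0.16 and 0.17. The gene that rose was Cyp4x1, by 0.86 ± 0.22 on the log2 scale (adjusted p = 0.0247, limma-trend), a call lost without KO replicate 2, 3 or 4 or WT replicate 1 or 2 (highest adjusted p over all settings 0.119). Elovl4, an elongase of very long chain fatty acids that precedes the hydroxylation step, did not pass (0.38 ± 0.15, adjusted p = 0.103).

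The 14 measured protein-coding genes nearest to the 7 on their chromosomes, 1 on either side of each, lay at distances from 3.5 to 3185.7 kb. Of these none was called higher, 1 was called lower and 13 were not called. Over all genes tested 11.1% were called higher and 9.81% lower, so nothing is read from these counts. The one that fell was Rab17, a small GTPase gene 7.0 kb from Mlph, with 39, 24, 20 and 21 in KO libraries and 42, 76, 60 and 43 in WT libraries (log2 fold change of -1.07 ± 0.32, adjusted p = 0.0451, limma-trend). Its groups did not overlap, but by a narrow margin. The call was lost without KO replicate 2, 3 or 4 or WT replicate 1, 2 or 3, in libraries 1 and 2 alone, with totals that leave out hormone and mitochondrial genes, and with the replicate block (adjusted p = 0.0541; highest adjusted p over all settings 0.197). Col6a3, on the other side of Mlph, did not pass (-0.53 ± 0.20, adjusted p = 0.0942, limma-trend). It was called lower in libraries 1 and 2 alone and in the authors' deposited table. Over all settings its log2 fold change lay between -1.06 and 0.0. Ehd4, 3.5 kb from Sptbn5 as annotated in GENCODE, and Fam32a, 6.9 kb from Cib3, had log2 fold changes of -0.14 ± 0.09 and -0.10 ± 0.08. Cdh19, the cadherin gene next to Cdh7, did not pass (1.56 ± 0.71, adjusted p = 0.154, limma-trend), but did with the replicate block (adjusted p = 0.0441).

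**Figure D4:**
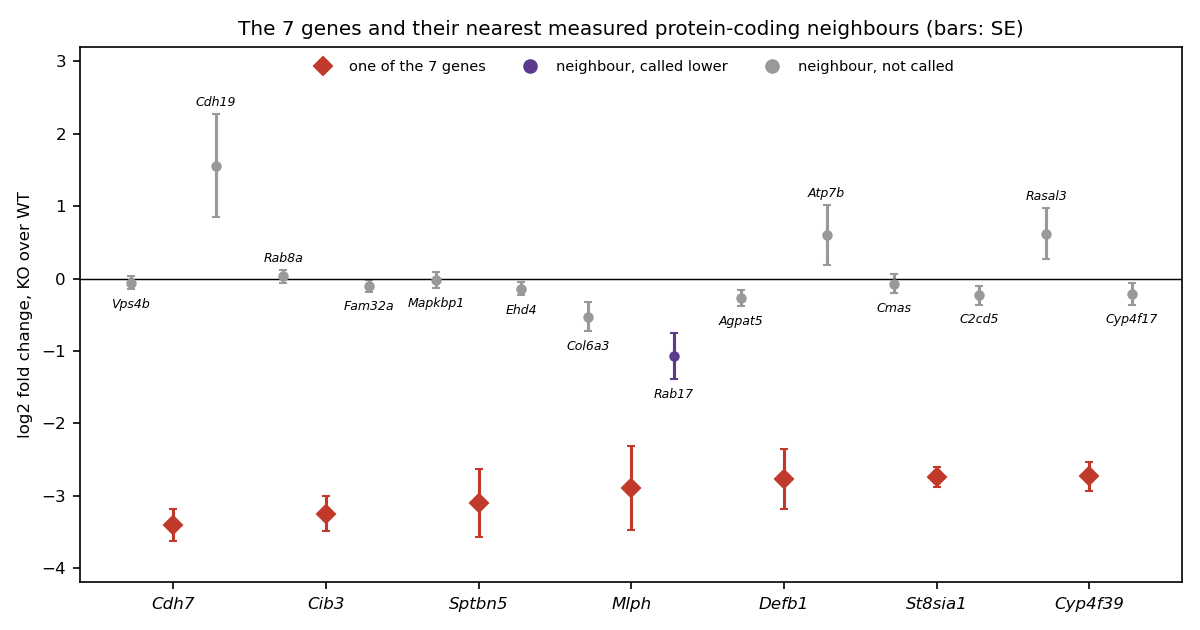
Log2 fold change (KO over WT, bars are standard errors) of the 7 genes, red diamonds, and of the nearest measured protein-coding gene on either side, circles, left for lower and right for higher coordinates. The neighbours lie between -1.07 and 1.56.

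The genes whose pattern over the 8 libraries was most like that of the 7 were named by a distance between profiles. It was the root mean square distance between profiles of log2(value + 1), each centred on its mean. Candidates were 12220 genes (12221 for Sptbn5) with a mean value of at least 50, leaving out predicted, RIKEN, pseudogene and small RNA models. This likeness includes the difference that chose the genes, and is a description. T2 was nearest to Cdh7 at 0.22, to Cib3 at 0.35 and to Sptbn5 at 0.39, with 63, 63, 85 and 42 in KO libraries and 508, 600, 610 and 547 in WT libraries. St8sia1 and Cyp4f39 were nearest to each other at 0.23, followed by Trpm5 at 0.32 from St8sia1 and Emid1 at 0.35 from Cyp4f39. Cyp4f39 was also nearest to Defb1, at 0.48. Mlph had no close match, its nearest being Sult1c2, a sulfotransferase gene, at 0.71 and Myo3a at 0.78. Sult1c2 had 94, 106, 58 and 69 in KO libraries and 492, 469, 332 and 322 in WT libraries, and was likewise lower in replicates 3 and 4 of both groups.

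Among the 14 beta cell markers the largest fall was that of Ucn3, a marker of mature beta cells, with 3072 ± 737.8 in KO and 12882 ± 1263 in WT islets (log2 fold change of -2.10 ± 0.18, adjusted p = 1.51e-04, limma-trend). The median over the list was -0.76. Ins1, an insulin gene, had 828271 ± 173400 in KO and 1877298 ± 100561 in WT islets, a log2 fold change of -1.2 ± 0.24 (adjusted p = 0.00794), and was not called in libraries 1 and 2 alone (0.0789). Its reads may be divided with those of the near-identical Ins2, which fell too (-0.98 ± 0.27, adjusted p = 0.0309, limma-trend). The call of Ins2 was lost in 11 of the alternative settings. Among these were the replicate block (adjusted p = 0.104), quantile normalization, totals without hormone and mitochondrial genes, each set alone and the authors' deposited table. Over all settings its log2 fold change lay between -1.07 and -0.44 (highest adjusted p = 0.213). Pdx1, a beta cell transcription factor gene, did not pass (-0.09 ± 0.16, adjusted p = 0.733, limma-trend). How much of each gene's value comes from beta cells was not tested.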

How the data were processed

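Islet RNA of 4 KO and 4 WT mice was sequenced, and the series' design text gives 4 mice a group. The submitters' processing notes name edgeR 3.16.15, RSEM 1.2.31, STAR 2.5.3a and bcl2fastq 2.20 as tools and GRCm38.p5 as the build, without settings. The authors' table of 14126 genes holds a normalized count per library, rounded to whole numbers. This deposited value is treated as a score, since raw counts would be needed for a count test. The same table holds the authors' deposited log2 fold change, log2 CPM, likelihood ratio score, p-value and adjusted p-value (FDR). Low whole numbers are skipped in WT replicates 3 and 4, at the spacing that scaling whole reads by 1.074 and 1.123 would give. The other 6 libraries skip none up to 60, so no marked scaling up shows in them. Their exact depth is unknown, and precision rests on the spread between libraries.

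Differences were computed with limma-trend (limma 3.58.1, R 4.3.3) on log2(value + 1), for the 14121 genes that reached a value of 1 in 4 or more libraries. P-values were adjusted over all of them by Benjamini-Hochberg, with 0.05 as the threshold. Log2 fold changes are on that scale, which understates those of low genes, and ± after one is limma's standard error. A second model added the set of libraries (3 and 4 against 1 and 2) and its interaction with genotype. The script was tested on simulated data. Both groups use the numbers 1 to 4. Across genes, KO and WT libraries of the same number deviated together from their group means, with r of 0.327, 0.583, 0.664 and 0.381, each over 0.1. Libraries of different numbers within a set correlated as much (KO 1 with WT 2 0.433, KO 2 with WT 1 0.454, KO 3 with WT 4 0.516, KO 4 with WT 3 0.466), so the set split may carry the correlation. A fit with the replicate number as a block is an alternative. Other alternatives were pseudocounts of 0.1 and 5, no filter, a mean of at least 10, totals without hormone and mitochondrial genes, quantile normalization, each set alone, each library left out, and the authors' deposited calls.

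The 7 genes, the lists and the split into sets were chosen with earlier results of these data known. Named relatives are the 3 called genes of each list with the largest change. Also named are the nearest measured protein-coding gene on either side of each gene, the 2 most alike genes and those next in the ranking of falls, of which 1 is not reported here. Chosen after their values were seen were Sytl4, Rab27a, Myo5a, Cib1, Cib2, Cdh1, St3gal5, St8sia5, Sptan1, Sptbn1, Gm28042, Ins1, Ins2, Bhlha15, Ucn3, Pdx1, Elovl4, Lyz2, Reg3b, Ang, Cyp4f13, Cyp4f16 and Cyp4v3. Coordinates are those of GENCODE M21 (GRCm38), which holds 14114 of the table's gene IDs.

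Further marker lists of cells an islet sample can hold were read in the same way. Of 6 delta, PP and epsilon cell markers 5 were called higher, and of 2 measured tuft cell markers 1. None of 5 measured endothelial, 6 macrophage, 2 T cell and 4 Schwann cell markers was called, and 1 of 3 B cell markers was called lower.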

Additional observations from a re-analysis of the deposited data

Results flagged for a closer look

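St8sia1 had 76 in KO replicate 2, apart from 102, 99 and 102 in the other KO libraries. The gap to the nearest library was 0.885 of the group's range, above Dixon's critical value for 4 libraries. Of 14 groups tested (7 genes, KO and WT) this was the only one past that value, and chance alone gives about 5% of groups. Without KO replicate 2 the log2 fold change of St8sia1 was -2.64, against -2.74 with all libraries.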

How the results depend on the processing

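The 7 log2 fold changes were negative under every alternative run, the widest ranges being -3.87 to -2.56 for Sptbn5 and -3.70 to -2.09 for Mlph. Of the calls over all genes (1562 higher, 1385 lower), the set of libraries as a term gave 2400 higher and 2102 lower. The replicate block gave 1999 and 1649, and changed no call of the named genes read under it other than those given beside the gene (Pdx1, Elovl4, Lyz2, Reg3b, Ang, Bhlha15, Cyp4f13, Cyp4f16 and Cyp4v3 were not read under the alternatives). Totals without hormone and mitochondrial genes gave 1746 and 1017. Leaving out 1 library gave 1121 to 1684 higher and 863 to 1597 lower (863 without WT replicate 2, 909 without KO replicate 4). Among relatives and partners it gave 19 to 25 higher, against 28, and 11 to 16 lower, against 19. Between the sets of libraries it gave 891 to 1261 higher in libraries 3 and 4, against 1325, and 433 to 776 lower, against 856 (473 without KO replicate 3, 433 without WT replicate 2, 515 without WT replicate 3), and totals without hormone and mitochondrial genes gave 1324 lower. The 14 genes of the interaction became 9 after quantile normalization, 7 with the replicate block and 1 to 146 without 1 library (7 without KO replicate 1, 146 without KO replicate 2, 3 without KO replicate 4, 88 without WT replicate 2, 7 without WT replicate 3, 1 without WT replicate 4). The difference between the sets could not be fitted with the replicate block. The causes of these shifts were not tested. With the exact depth of 6 libraries unknown, no exact counting error can be given for single-digit values such as those of Sptbn5 in KO islets.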
